A study of Mus musculus with 12 samples.

Results

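The loci described here are those whose RNA was abundant in the cells titled high expression of control newborn mouse kidneys and scarce in the cells titled low expression of the same genotype. A locus is the union of transcripts that overlap on one strand of chromosomes 1 to 19, and its level is given in CPM, the usual unit of fragments scaled to a fixed library total. A locus was taken when it reached 20 CPM in both control high libraries and when its control high mean was at least 16 times its control low mean, which 326 of 25677 loci did. Of these, 312 could be given a gene symbol and 14 could not. The control high and control low values chose the loci, so they are given below as a description without a test, and the only independent test is the comparison of mutant high with mutant low cells.

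All cells came from kidneys at postnatal day 0 (the labels also call them fetal), carried a tdTomato reporter at the Rosa26 locus (R26R-tdTomato), and were obtained by flow sorting of cells expressing Six2, the transcription factor that marks nephron progenitors. RNA was sequenced from 4 control low, 2 control high, 2 mutant high and 4 mutant low samples. Titles tell control from mutant and high from low cells without naming the sorted signal or the mutated gene. Eed, a subunit of the Polycomb repressive complex that methylates histone H3, appears in the series title only, and the driver of recombination is not given in the sources used here. Separate animals are not stated for the samples, so the p-values below measure the spread between libraries, which may be technical.

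The nephron epithelium is built from progenitors that condense, become epithelial and then specialise along the tubule. Proximal tubule cells take back sugars, amino acids, phosphate and small proteins from the filtrate through a brush border of microvilli, secrete organic anions and cations, and make glucose. The sodium pump in their basal membrane drives much of this transport. Thick limb, distal tubule and collecting duct cells carry other salt, water and acid transporters. HNF1 and HNF4 are transcription factors known to bind the promoters of many proximal tubule genes.

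The promoters of 4 genes of this set that hold the HNF1 hexamer GTTAAT, and of one that does not, are printed as examples of the sequences behind the counts that follow. The windows run from 250 bases before the start of transcription to 30 bases after it, come from RefSeq (GRCm38.p6), and read in the direction of the gene. Capitals mark matches, on either strand, to the HNF1 hexamer GTTAAT, the HNF4 element CAAAGTCCA or the TATA box TATAAA. Miox lies at chr15:89334223-89334502 (plus strand), Slc34a1 at chr13:55399398-55399677 (plus strand), Slc3a1 at chr17:85028097-85028376 (plus strand), Slc22a6 at chr19:8617746-8618025 (plus strand) and Gpx3 at chr11:54902604-54902883 (plus strand).
Miox: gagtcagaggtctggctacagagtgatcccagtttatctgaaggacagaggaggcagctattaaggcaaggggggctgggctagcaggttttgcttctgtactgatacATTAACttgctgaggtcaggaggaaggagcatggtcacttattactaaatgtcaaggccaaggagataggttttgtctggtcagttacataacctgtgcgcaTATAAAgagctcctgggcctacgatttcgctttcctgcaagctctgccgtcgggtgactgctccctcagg
Slc34a1: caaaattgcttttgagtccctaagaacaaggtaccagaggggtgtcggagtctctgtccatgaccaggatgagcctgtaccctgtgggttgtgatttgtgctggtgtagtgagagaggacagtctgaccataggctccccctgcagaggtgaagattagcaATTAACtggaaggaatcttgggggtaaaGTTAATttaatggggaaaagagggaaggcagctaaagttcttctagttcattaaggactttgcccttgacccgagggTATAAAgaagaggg
Slc3a1: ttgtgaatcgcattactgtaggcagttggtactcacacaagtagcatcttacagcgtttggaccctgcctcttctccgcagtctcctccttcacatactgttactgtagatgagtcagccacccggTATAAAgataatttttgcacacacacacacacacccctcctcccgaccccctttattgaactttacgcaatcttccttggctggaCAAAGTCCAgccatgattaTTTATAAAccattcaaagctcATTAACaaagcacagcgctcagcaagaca
Slc22a6: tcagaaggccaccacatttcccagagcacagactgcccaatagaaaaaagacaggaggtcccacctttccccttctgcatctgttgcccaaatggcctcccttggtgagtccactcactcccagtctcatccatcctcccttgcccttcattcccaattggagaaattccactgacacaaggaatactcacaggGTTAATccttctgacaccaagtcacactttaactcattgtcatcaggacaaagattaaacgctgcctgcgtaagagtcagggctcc
Gpx3: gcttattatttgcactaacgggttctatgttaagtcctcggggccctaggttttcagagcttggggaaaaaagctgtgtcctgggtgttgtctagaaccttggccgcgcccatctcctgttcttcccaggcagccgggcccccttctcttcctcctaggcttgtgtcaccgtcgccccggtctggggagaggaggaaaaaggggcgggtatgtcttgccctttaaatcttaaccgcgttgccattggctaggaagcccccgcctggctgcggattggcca
Symbols of 227 of the 326 loci were in the promoter table, and 183 had a single window there, which was searched over its full length of 250 bases before and 50 after the start. GTTAAT was present in 30 of 183 windows (16.4%), compared with 7.35% of the 22862 symbols with a single window and 4.18% of the 7585 of them whose loci were tested here. CAAAGTCCA was present in 3 windows (1.64%, against 0.486% and 0.475%). TATAAA was present in 29 windows (15.8%, against 14.8% and 7.03%). The full HNF1 palindrome, which contains this hexamer, was found in 0 of the 183 windows and in 0.00875% of all windows. These shares are descriptions of letters in a window, and no test was made of them.

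Library totals ran from 4549011 to 12365078 fragments, and the 2 control high libraries were among the smallest, with 6249263 and 4549011. Mitochondrial RNA took 4.51% and 10.3% of fragments in control high and 0.494% to 1.96% in the other 10 libraries. Eed RNA over the whole locus lay between 13.2 and 16.7 CPM in control low, 4.98 and 12.3 in mutant low, 6.72 and 7.03 in control high, and 5.26 and 7.58 in mutant high cells. Its difference did not pass the test between mutant low and control low (log2 fold change -0.74, edgeR's quasi-likelihood test, adjusted p = 0.107) or between mutant high and control high cells (-0.57, adjusted p = 0.291). Which exons a mutation would remove is not given, so these levels do not check the genotype labels. Six2 stood at 1466 to 2078 CPM in control low, 13 to 48.8 CPM in control high, 108 to 118 CPM in mutant high and 709 to 959.8 CPM in mutant low cells. In both genotypes Six2 RNA was thus lower in the cells titled high than in those titled low, although sorting was for cells expressing Six2.

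The 326 loci summed to 134197 and 119720 CPM in the control high libraries, which is 13.4% and 12% of their fragments. In mutant high cells the same loci summed to 53048 and 43310 CPM, 37.9% of the control high mean. The control low sums were 3935, 6966, 2186 and 3476 CPM, and the mutant low sums were 2664, 1756, 1795 and 1641 CPM, 47.4% of the control low mean. High and low libraries did not overlap in either genotype, and both mutant high sums lay below both control high sums. Without Jarid2, whose levels are described below, the mutant low sums were 2392, 1508, 1524 and 1434 CPM. The median locus of the set stood at 119.9 and 110.4 CPM in control high, 46.3 and 38.1 in mutant high, 2.21 to 6.48 in control low and 0.893 to 1.61 in mutant low libraries. In bulk RNA of sorted cells, fewer cells of a type and less RNA per cell cannot be told apart.

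**Figure D1:**
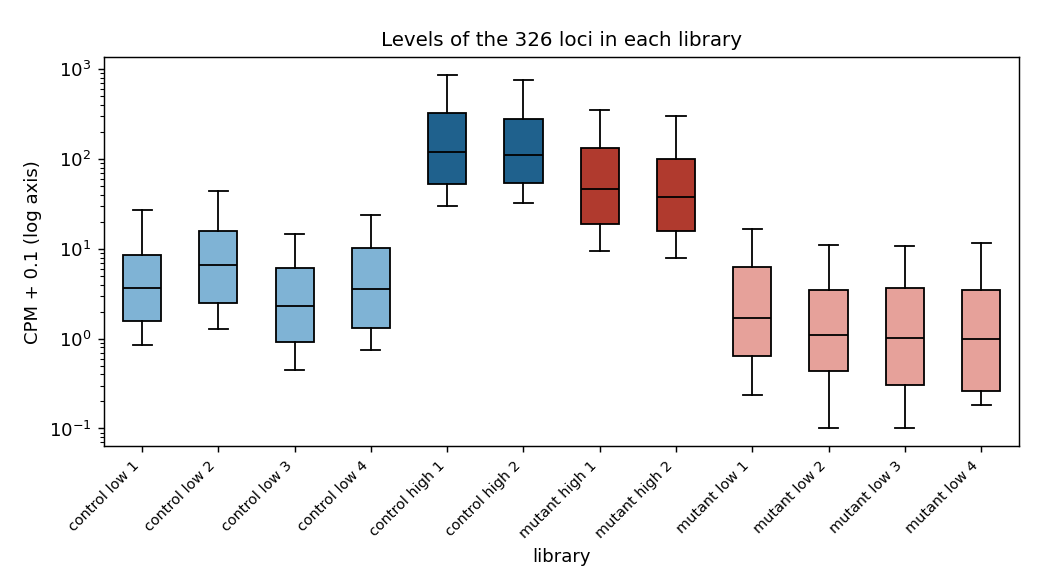
Levels of the 326 loci in each of the 12 libraries, as CPM plus 0.1 on a log axis. Boxes span the quartiles, lines mark the medians and whiskers the 10th and 90th percentiles over loci. Medians of mutant high libraries (46.3 and 38.1 CPM) lie below those of control high libraries (119.9 and 110.4 CPM) and above every low library.

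The set held many of the listed markers of mature tubule. The marker lists were drawn up with earlier results of these data known, so they are no outside support. Of a list of 50 proximal tubule markers, 43 belonged to the set. So did 7 of 22 markers of the loop of Henle and distal tubule and 9 of 21 of the collecting duct, with Calb1 on both of these lists. From the lists for podocytes, nephron progenitors, interstitium, endothelium and white blood cells it held 0 loci, from the list for early nephron commitment it held Papss2 and from the red blood cell list Slc4a1, which intercalated cells of the collecting duct also use. Genes of the solute carrier family (Slc) made up 56 of the 312 named loci, or 17.9%, against 2.21% of the 12418 named loci tested. Of the 19 tested genes of the Slc22 family of organic ion transporters, 10 were among them, as were 6 of 7 tested Ugt loci, which encode enzymes that add glucuronic acid to foreign compounds. Zinc finger genes with the prefix Zfp numbered 0 here of 297 tested. The set made up 326 of the 13749 loci tested, so a short list would hold few or 0 of its loci at that share alone. The lists with 0 loci therefore say little. These counts describe what the selection picked and carry no test.

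Mutant high cells kept these loci far above mutant low cells. In edgeR's quasi-likelihood test over 13749 loci, 323 of the 326 were higher in mutant high than in mutant low cells at an adjusted p under 0.05 (99.1%), and 0 were lower. The share of all loci tested that were called was 19% higher and 13.2% lower. The median log2 fold change over the set was 5.42, against -0.03 over all loci tested, and the smallest among the 323 was 1.35. In 325 of 326 loci both mutant high libraries lay above all 4 mutant low libraries, which held for 27.0% of all loci tested. Mean CPM in mutant high was at least 16 times that in mutant low cells for 244 loci (74.8%, against 4.63% of all loci tested). The complete selection applied to the mutant libraries in place of the control libraries was met by 234 loci, of which 163 were shared with the control set, 69.7% of the mutant list and 50% of the control list. Marker lists of other cells differed between these groups in both directions. White blood cell markers summed to 888 to 1135 CPM in mutant high against 30.6 to 49.9 in mutant low cells (8 of 9 tested called higher, 0 lower), and interstitial markers to 628 to 683 against 229 to 371 CPM (5 of 10 higher, 0 lower). Podocyte markers summed to 895 to 1109 against 585 to 849.7 CPM, with 6 of 14 called higher and 2 lower. Nephron progenitor markers were lower, at 655 to 706 against 2623 to 2944 CPM (0 of 21 higher, 13 lower). Markers of early nephron commitment summed to 1017 to 1701 against 2117 to 3766 CPM (2 of 11 higher, 2 lower), and the endothelial sums overlapped, at 69.3 to 78.0 against 55.8 to 87.8 CPM. Red blood cell markers, a list that includes Slc4a1 of the set, summed to 61.1 to 117 against 18.6 to 55.4 CPM (1 of 3 tested higher, 0 lower). In mutant low cells Dcn, Ly6c1, C1qa, S100a8, S100a9 and Rhag of these lists were at 0. Their part in the result was not tested.

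**Figure D2:**
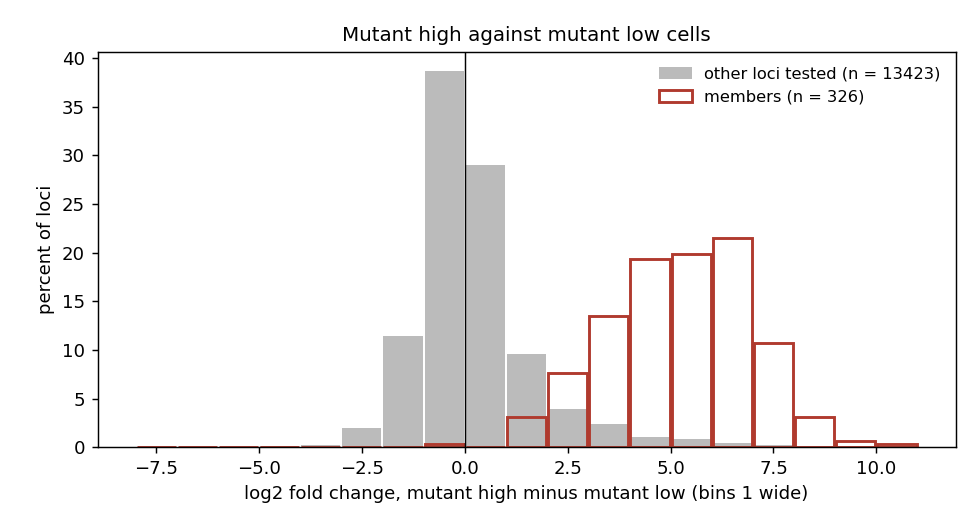
Distribution of the log2 fold change of mutant high minus mutant low cells from edgeR, in bins 1 wide, for the 326 loci (red outline) and all other loci tested (grey), each as percent of its group. The set has its median at 5.42, and 1 of its loci lies below 0.

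The 3 loci that missed the threshold differed in kind. Pcbd1, a cofactor recycling enzyme of phenylalanine hydroxylation, had 66.7 and 42.9 CPM in mutant high versus 16.5, 17.1, 2.44 and 2.68 in mutant low cells, which do not overlap but split in the low group (log2 fold change 2.55 ± 0.96 SE, edgeR adjusted p = 0.0686). Fam213b, now named as a prostamide synthase, had 5.80 and 6.94 CPM in mutant high versus 1.02 to 4.71 in mutant low cells (1.15 ± 0.82 SE, edgeR adjusted p = 0.315). Its control high values were 292 and 39.3 CPM, and the second alone would not reach 16 times the control low mean. Jarid2, a partner of the Polycomb complex (mm9 chr13:44826207-45016346, plus strand), had 0 fragments in all 4 control low libraries, 103 and 90.6 CPM in control high, 179 and 162 in mutant high and 272, 248, 270.4 and 207 in mutant low cells. It met the fold criterion through the 0 listed in control low cells, a value that could equally be a failed estimate, and it was the only locus of the set with a negative log2 fold change in the mutant (-0.60 ± 0.24 SE, edgeR adjusted p = 0.0704).

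The loci of the set stood at unequal shares of their control high level in mutant high cells. The median locus was at 31.2% of its control high mean, with quartiles of 20.6% and 55.6% and a range from 1.25% to 363%. On this scale the median over all loci tested was 145%, a shift of 0.55 on the log2 scale that the normalization of edgeR reduced to 0.08. Below 50% lay 230 loci, below 20% lay 78 and below 10% lay 17, while 22 stood at 100% or more. edgeR called 218 of the 326 lower in mutant high than in control high cells (66.9%, against 11.2% of all loci tested) and 0 higher (against 16.3%), and 126 were called without the second mutant high library. Both mutant high libraries lay under both control high libraries for 269 loci (17.6% of all loci tested) and over both for 10 (53.7%). The control high libraries also chose the loci, so these counts are given as a description. Several marker lists of other cells had higher sums in mutant high than in control high cells. Nephron progenitor markers summed to 655 to 706 against 107 to 195 CPM (11 of 21 tested called higher), podocyte markers to 895 to 1109 against 175 to 258 CPM (9 of 14), interstitial markers to 628 to 683 against 114 to 140 CPM (8 of 10) and markers of early nephron commitment to 1017 to 1701 against 604 to 605 CPM (8 of 11 higher, 1 lower). White blood cell markers summed to 888 to 1135 against 302 to 379 CPM, but 1 of 9 tested was called higher. Endothelial markers summed to 69.3 to 78.0 against 20.5 to 65.7 CPM, with 1 of 10 called higher. Red blood cell markers, a list that includes Slc4a1 of the set, had lower sums, at 61.1 to 117 against 149.9 to 273 CPM (0 of 3 tested called higher, 1 lower). Of these lists Tbx18 and Hba-a2 in control high and S100a8, S100a9 and Rhag in both high groups were at 0. Their part in the lower levels was not tested.

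Loci were grouped by known role, with groups drawn up after the values had been seen, and 174 of the 326 were given a role. The group medians of the mutant high level ran from 14.4% of control high for 11 genes of sugar metabolism to 109% for 12 genes of epithelial adhesion, junctions and keratin. The groups share libraries, and the differences between them were not tested. Calls by group below stand beside 99.1% of the set, and 19% of all loci tested, called higher in mutant high than in mutant low cells. Against control high cells, whose values chose the loci, 66.9% of the set and 11.2% of all loci tested were called lower. Counts of calls within a group are therefore given as a description.

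**Figure D3:**
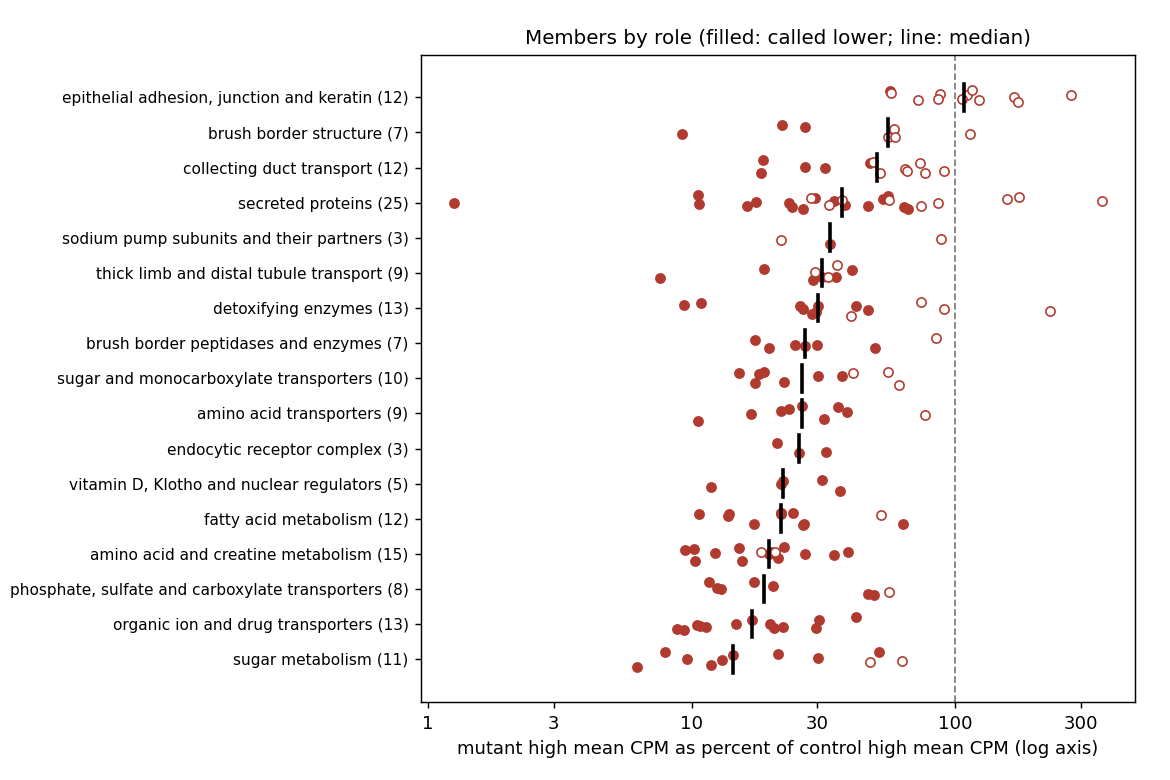
Mutant high mean CPM as percent of control high mean CPM (log axis) for the 174 loci with a role, grouped by role with the number of loci in parentheses. Each point is a locus, filled where edgeR called it lower in mutant high cells, black lines mark group medians and the dashed line marks 100%. Adhesion and junction genes centre at 109%, while all other groups centre between 14.4% and 55.7%.

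Fxyd2, the gamma subunit of the sodium pump, had the highest control high level of the set, with 5453 and 10299.6 CPM (mm9 chr9:45207792-45218361, plus strand). Mutant high cells had 2459 and 974 CPM, control low cells 141, 449, 25.3 and 29.7 CPM and mutant low cells 18.3, 0.841, 6.50 and 2.19 CPM. High and low groups were apart in both genotypes, and both mutant high values lay under both control values. The mutant high against mutant low difference was 7.92 ± 1.41 on the log2 scale (SE; edgeR adjusted p = 0.00222). With the number of the sample descriptions as a replicate block it was 8.24, and was no longer called (edgeR adjusted p = 0.13). Atp1b1, the beta subunit of the pump (mm9 chr1:166367398-166388486, minus strand), had 4869.5 and 4964 CPM in control high, 1793 and 1488 in mutant high, 103, 69.3, 82.9 and 61.9 in mutant low and 176, 511, 151 and 195 in control low cells. Both genotypes kept the groups apart, and the control low libraries were level but for the second. The mutant high against mutant low difference was 4.32 ± 0.41 (SE; edgeR adjusted p = 1.92e-06). Nme7, whose locus meets the end of Atp1b1 on the other strand, had 1697 and 2643 CPM in control high against 809 and 816 in mutant high cells. Atp1b1 was the more abundant of the 2, and part of the Nme7 values may come from it.

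All 13 organic ion and drug transporters were called higher in mutant high than in mutant low cells. They stood at 8.81% to 42.2% of their control high mean, and edgeR called all 13 lower there, as it did 66.9% of the set and 11.2% of all loci tested. The second count is a description, since control high values chose the loci and the group was drawn up after values were seen. Slc22a6, the organic anion transporter OAT1 (mm9 chr19:8692486-8702789, plus strand), had 1826 and 1078 CPM in control high against 243 and 251 in mutant high cells. Its low-cell values were 27.1, 54.5, 11.8 and 46.0 CPM in control and 2.28, 1.68, 0.305 and 0.162 CPM in mutant. The 4 groups did not overlap, and the mutant high against mutant low difference was 7.92 ± 0.76 (SE; edgeR adjusted p = 1.1e-05). Slc22a8, the organic anion transporter OAT3 and a neighbour of Slc22a6, had 232 and 212 CPM in control high against 56.8 and 42.0 in mutant high cells. Slc22a12, the urate transporter URAT1, had 24.6 and 26.8 CPM in control high but 4.62 and 0.771 in mutant high cells, which differ from each other but both lie under the control values. Slc22a2, which carries organic cations, stood at 11.3% of control high.

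Phosphate, sulfate and carboxylate transporters numbered 8, at a median of 18.8%. Slc34a1, the main phosphate transporter of the brush border (mm9 chr13:55501009-55516056, plus strand), had 3099 and 2603 CPM in control high, 535 and 451 in mutant high, 91.7, 102, 10.6 and 45.6 in control low and 8.86, 2.35, 3.45 and 0.649 in mutant low cells. All mutant values lay under the matching control values. Its mutant high against mutant low difference was 7.02 ± 0.91 (SE; edgeR adjusted p = 0.000179). Slc17a1 and Slc17a3, anion transporters encoded side by side, stood at 20.3% and 12.5% of control high, and their neighbour Slc17a4 at 56.4%. Slc13a1, the sulfate transporter, stood at 46.8%, and the dicarboxylate transporter Slc13a3 at 12.9%.

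Of 10 sugar and monocarboxylate transporters, 7 were called lower in mutant high cells and all 10 were higher in mutant high than in mutant low cells. Slc5a2, the SGLT2 glucose transporter, had 167 and 207 CPM in control high against 21.9 and 35.0 in mutant high cells, 15.2% of control. Slc5a1, the SGLT1 glucose transporter, had 585 and 339.6 CPM in control high against 234 and 283 in mutant high cells, 55.9% of control, and was not called. Slc2a2, the GLUT2 glucose transporter of the basal membrane, stood at 30.1%. Slc5a12, a lactate transporter, stood at 18.1%.

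Among 9 amino acid transporters, 8 were called lower in mutant high than in control high cells, as were 66.9% of the set and 11.2% of all loci tested. Slc3a1, the rBAT chain of the cystine transporter, had 2925 and 1283 CPM in control high, 591 and 392 in mutant high, 103, 156, 50.6 and 83.3 in control low and 56.6, 43.9, 33.5 and 44.2 in mutant low cells. The mutant high and mutant low values were apart by 3.42 ± 0.38 on the log2 scale (SE; edgeR adjusted p = 9.36e-06). Its partner chain Slc7a9 stood at 38.9% of control high. Slc6a18 and Slc6a19, neighbouring genes for neutral amino acid transporters, stood at 26.2% and 31.7%. Slc7a8, a basal amino acid exchanger, had 366 and 360.1 CPM in control high against 315 and 244 in mutant high cells, 76.9% of control, and was the one transporter of this group not called.

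The brush border and the uptake of protein gave mixed levels. Lrp2, or megalin, the large endocytic receptor of the proximal tubule, had 1459 and 1319 CPM in control high, 268 and 319 in mutant high, 56.5, 63.4, 13.9 and 28.3 in control low and 8.05, 4.03, 3.35 and 3.33 in mutant low cells. The groups did not overlap, and the mutant high against mutant low difference was 5.95 ± 0.50 (SE; edgeR adjusted p = 1.14e-06). Cubn and Amn, which together form its partner receptor, stood at 32.5% and 25.5% of control high, and all 3 were called lower. Peptidases of the brush border membrane differed among themselves. Ggt1, which cleaves glutathione, stood at 19.6% and Anpep, or aminopeptidase N, at 29.9%. Dpp4, by contrast, had 2825 and 1406 CPM in control high against 1899 and 1684 in mutant high cells, overlapping values. Of 7 genes of brush border structure, 3 were called lower: Pdzk1, which tethers transporters, and its interacting protein Pdzk1ip1 stood at 26.9% and 9.17%, and Baiap2l2 at 22.1%. Vil1, or villin, which bundles actin in microvilli, and the microvillar cadherins Cdhr2 and Cdhr5 stood at 58.7%, 55.7% and 114%.

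Enzymes of sugar metabolism had the lowest group median, 14.4%. Miox, which opens myo-inositol and is known from the proximal tubule (mm9 chr15:89164904-89167438, plus strand), had 3629 and 3013 CPM in control high against 158 and 254 in mutant high cells, 6.21% of control. Its low-cell values were 164, 164, 24.5 and 59.6 CPM in control and 5.50, 3.87, 2.34 and 1.3 CPM in mutant. Mutant high values overlapped the control low range at its upper end, and were above mutant low cells by 6.01 ± 0.69 on the log2 scale (SE; edgeR adjusted p = 4.06e-05). Fbp1 and Pck1, which act in glucose synthesis, stood at 9.61% and 11.9%. G6pc, the last enzyme of glucose synthesis, had 40.0 and 51.9 CPM in control high against 2.26 and 5.01 in mutant high cells, and 0 fragments in the 4 mutant low libraries, so that it was at least 43.1-fold higher in mutant high than in mutant low cells against a floor of 3 fragments over that group.

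Enzymes that handle amino acids and fatty acids followed at medians of 19.7% and 21.8%. Gatm, which makes the creatine precursor, had 4459 and 2282 CPM in control high, 549 and 802 in mutant high, 86.4, 103, 27.5 and 56.1 in control low and 25.4, 26.6, 21.4 and 18.6 in mutant low cells. The mutant high and mutant low groups were apart by 4.84 ± 0.43 on the log2 scale (SE; edgeR adjusted p = 1.17e-06). Of the 15 genes handling amino acids and creatine, 13 were called lower in mutant high cells, with Pcbd1 and the urea cycle enzyme Ass1 as the exceptions, and 14 were called higher in mutant high than in mutant low cells. Of 12 genes of fatty acid metabolism, 11 were called lower, and Slc27a2, which activates long fatty acids, was not, with 1387 and 1229 CPM in control high but 392 and 984 in mutant high cells. Acsm1 and Acsm2, acyl-CoA synthetases, stood at 13.9% and 13.7%.

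Detoxifying enzymes ranged most widely among the enzyme groups, from 9.34% to 229.6%. Fmo1, a flavin monooxygenase, stood at 30.1% of control high. Aoc1, which oxidises histamine and polyamines, had 37.3 and 44.2 CPM in control high against 92.9 and 94.1 in mutant high cells. Both mutant values lay above both control values, but edgeR did not call the difference. Gpx3, the secreted glutathione peroxidase made by the tubule, had 4583 and 3762 CPM in control high, 2474 and 1814 in mutant high, 174, 283, 40.1 and 74.7 in control low and 53.3, 43.9, 10.8 and 33.6 in mutant low cells, with a mutant high against mutant low difference of 5.92 ± 0.68 (SE; edgeR adjusted p = 4.08e-05). Hnf4a, the nuclear receptor known to drive proximal tubule genes, had 241 and 139.6 CPM in control high against 46.4 and 38.6 in mutant high cells, 22.3% of control. All 5 genes of vitamin D turnover, Klotho and nuclear regulators were called lower than in control high cells, as were 66.9% of the set and 11.2% of all loci tested.

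**Figure D4:**
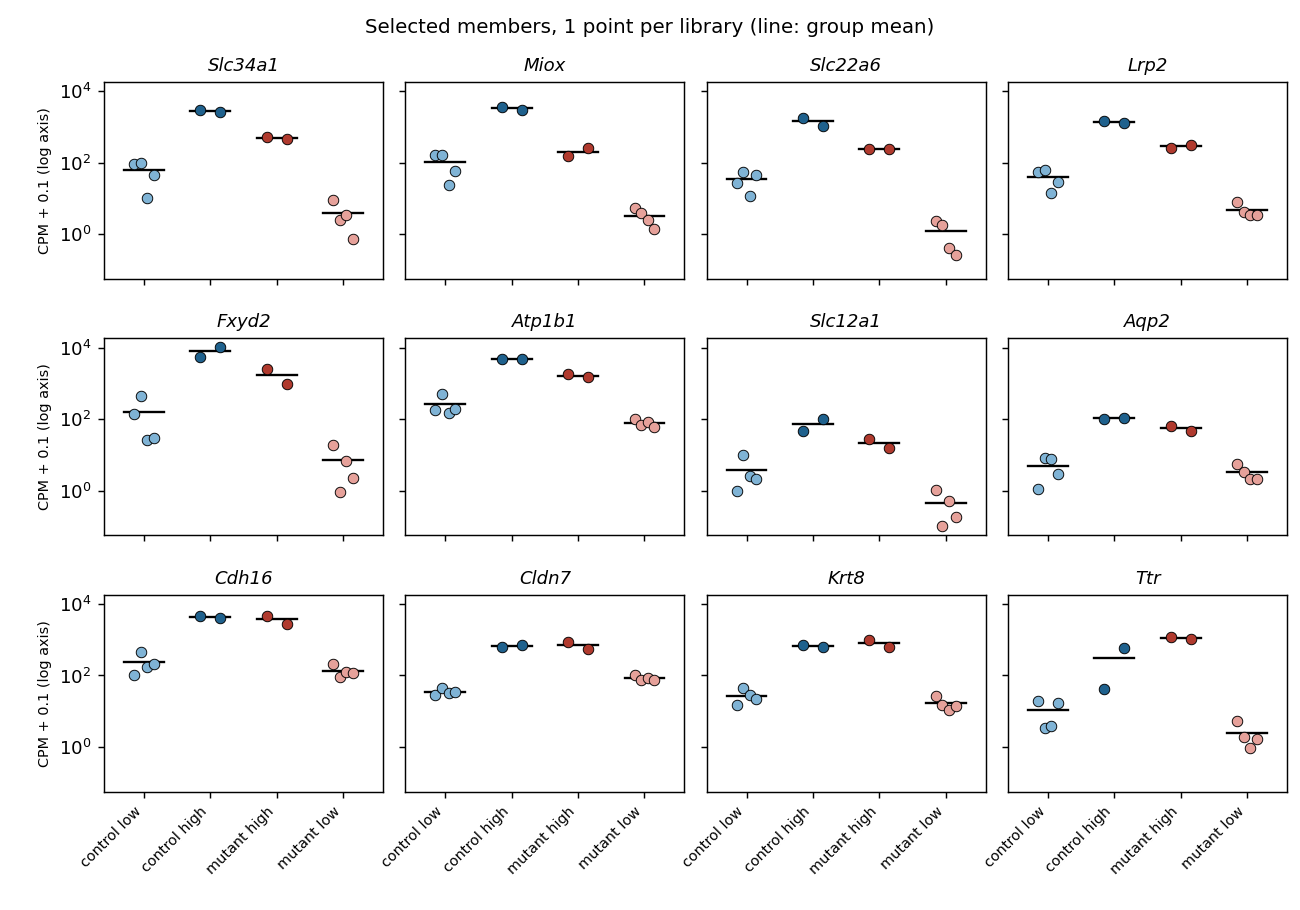
CPM plus 0.1 (log axis) of 12 selected loci, with 1 point per library and a line at the group mean, for control low, control high, mutant high and mutant low cells. Transporter and metabolic genes such as Slc34a1 and Miox step down from control high to mutant high, Cdh16, Cldn7 and Krt8 overlap between these groups, and the 2 control high values of Ttr lie far apart (40.8 and 571 CPM).

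Transport genes of later segments also remained above mutant low cells. All 9 genes of the thick limb and distal tubule and all 12 of the collecting duct were called higher in mutant high than in mutant low cells. The same call was made for 99.1% of the set and 19% of all loci tested. Calb1, a calcium buffer of the distal tubule, had 2159.8 and 2917 CPM in control high, 260.1 and 695 in mutant high, 21.9, 75.3, 37.2 and 63.6 in control low and 7.78, 5.38, 3.86 and 3.41 in mutant low cells, with no overlap between groups (mutant high against mutant low 6.55 ± 0.52 SE; edgeR adjusted p = 7.35e-07). Slc12a3, the thiazide-sensitive salt transporter, stood at 7.61% of control high, the sixth lowest share of the set, with 94.6 and 168 CPM in control high against 10.7 and 9.26 in mutant high cells. Slc12a1, the furosemide-sensitive transporter of the thick limb, and its chloride channel partner Bsnd stood at 29.5% and 33.1%. Collecting duct genes had a median of 50.4%: the sodium channel subunits Scnn1g and Scnn1b stood at 90.7% and 73.8%, the water channels Aqp2 and Aqp3 at 51.9% and 32.1%, and the anion exchanger Slc4a1 at 18.7%.

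Genes of epithelial adhesion and junctions stood at 56.6% to 275% of their control high level, where the median over all loci tested was 145%. Of 12, 7 stood at 100% or more and 1, Cldn8 at 56.6%, was called lower, and all 12 were called higher in mutant high than in mutant low cells. Cdh16, the kidney cadherin (mm9 chr8:107138047-107148161, minus strand), had 4475 and 4004 CPM in control high, 4704 and 2711 in mutant high, 106, 459.5, 167 and 213 in control low and 210.2, 93.3, 128 and 116 in mutant low cells. Control and mutant values overlapped both in high and in low cells, while high and low cells did not, with a mutant high against mutant low difference of 4.71 ± 0.47 (SE; edgeR adjusted p = 4.03e-06). Krt8, a keratin of simple epithelia, had 707 and 617 CPM in control high against 1002 and 623 in mutant high cells. Cldn7, a tight junction claudin, had 633 and 705 CPM in control high, 888 and 536 in mutant high, 27.8, 45.2, 33.2 and 34.2 in control low and 100.2, 72.5, 86.9 and 74.1 in mutant low cells. Its mutant low libraries all lay above the control low libraries, and the mutant high libraries still exceeded them by 3.03 ± 0.25 on the log2 scale (SE; edgeR adjusted p = 6.96e-07). Ocln, or occludin, and Perp, a protein of desmosomes, stood at 174% and 275%. On edgeR's scale the genes of this group at or above 100% were not called in either direction against control high cells, and 3 of them (Perp, Ocln and Cldn1) had a positive log2 fold change.

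The lowest and the highest share of the set belonged to genes of 2 secreted proteins, Spp2 and Ttr (363%). Spp2, a secreted phosphoprotein of proximal tubule, had 464 and 801 CPM in control high but 9.67 and 6.17 in mutant high cells, 1.25% of control and the lowest share of the set. In low cells it had 0.741, 1.92, 0.117 and 0.728 CPM in control and a single fragment over the 4 mutant libraries. Ttr, or transthyretin, a carrier of thyroid hormone and retinol, had 40.8 and 571 CPM in control high against 1170.5 and 1052 in mutant high cells. The mutant values lay above both control values, which were themselves far apart, and edgeR did not call the difference. Its mutant high against mutant low difference was 8.92 ± 1.18 (SE; edgeR adjusted p = 0.000312). Vcam1, an adhesion molecule, had 45.8 and 47.0 CPM in control high against 169 and 98.3 in mutant high cells, 288% of control. Sectm1b, a transmembrane protein, stood at 249% and Afp, the fetal serum protein, at 175%. Other loci at the low end were Nat8f1, an acetyltransferase, at 7.83%, Ttc36 at 6.34%, Fam213b at 3.85% and the unnamed transcript uc007cph.1 at 5.06%. Napsa, an aspartic protease with 3266 and 2225 CPM in control high, and Npnt, or nephronectin, a basement membrane ligand of integrins with 2328 and 2403 CPM, were among the 12 highest loci, and stood at 25.4% and 55.5%. These 12 together took 35.5% of the summed control high level of the set.

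In low cells most of these loci were at lower levels in the mutant as well. The median locus stood at 32.8% of its control low mean, against 95.2% over all loci tested, and 282 of 326 were under 100%. edgeR called 167 lower (51.2%, against 3.21% of all loci tested) and 11 higher (3.37%, against 4.82%), in a comparison whose control libraries took part in the selection. The filter of this fit also used the high libraries, where these loci are abundant. A fit of the low groups alone, whose filter left 220 of the 326 to test, called 87 lower and 9 higher. The share of all loci called in that fit is not given, so its counts are a description. All mutant low libraries lay under all control low libraries for 138 loci (5.95% of all loci tested). Lower calls in both high and low cells were made for 133. The share of all loci tested with both calls was not computed, so this count is a description. Among the 11 called higher were Cldn7, Enpep, Papss2, Cav2, Fmo2, Perp, Cldn1, Vcam1, Cpn1 and Jarid2. Enpep, or aminopeptidase A, had 28.9, 32, 18.5 and 32.8 CPM in control low versus 61.9, 49.9, 56.2 and 45.3 in mutant low cells, which do not overlap. Papss2, a sulfate activating enzyme, had means of 17.0 ± 3.62 CPM in control low versus 44.3 ± 11.1 in mutant low cells (SD, n = 4). Proximal tubule markers summed to 421 to 1862 CPM in control low versus 202 to 340.5 in mutant low cells, and nephron progenitor markers to 4241 to 5077 versus 2623 to 2944 CPM (2 of 21 called higher, 5 lower). Markers of early nephron commitment summed to 831 to 1185 versus 2117 to 3766 CPM (7 of 11 higher, 0 lower), podocyte markers to 382 to 432 versus 585 to 849.7 CPM (3 of 14 higher, 1 lower) and interstitial markers to 133 to 214 versus 229 to 371 CPM (2 of 10 higher, 0 lower). Red blood cell markers summed to 119 to 267 versus 18.6 to 55.4 CPM (0 of 3 tested higher, 3 lower). White blood cell markers summed to 96.2 to 130.5 versus 30.6 to 49.9 CPM (0 of 9 higher, 1 lower). Endothelial sums overlapped, at 75.4 to 114 versus 55.8 to 87.8 CPM (1 of 10 higher, 1 lower). The share of other cells in the sorted samples was not tested.

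**Figure D5:**
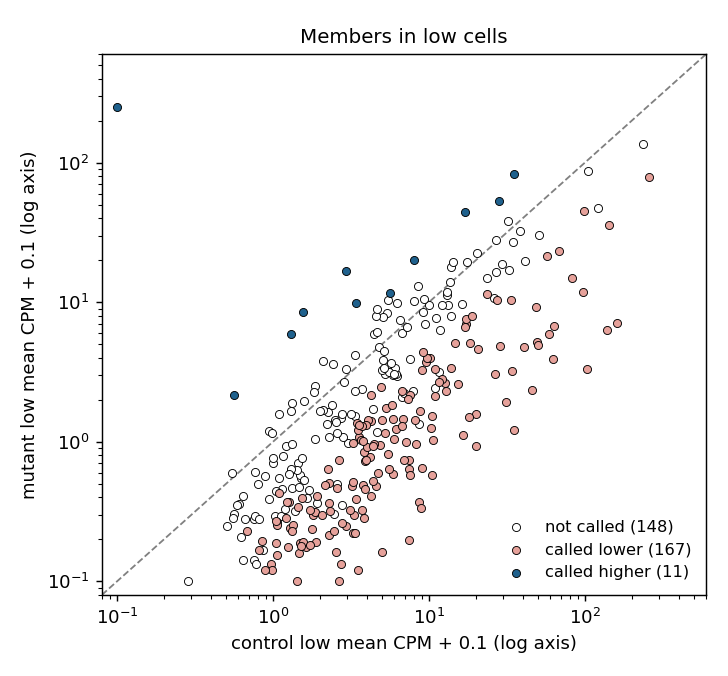
Mean CPM plus 0.1 in mutant low (vertical) against control low cells (horizontal) for the 326 loci, both on log axes, with a dashed line of equality. Points are coloured by edgeR's call (167 lower and 11 higher), and the point at the left edge is Jarid2, at 0 in all control low libraries.

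Loci of the set also lay beside one another. Within 100 kb of another locus of the set were 57 loci, in 26 groups. The share of all loci tested that lie so close was not computed, so the count is a description and does not show clustering. Some neighbours overlap on opposite strands, such as Acsm1 with Gm19950 and Acot3 with 4732463B04Rik, and their fragments cannot be told apart. The largest, on mm9 chr7:126669779-126806029, held Acsm5, Acsm2, Gm19950 and Acsm1, all 4 loci tested there, and summed to 661 to 871 CPM in control high, 106 to 109 in mutant high, 6.06 to 31.7 in control low and 1.02 to 2.55 in mutant low cells. Groups of 3 were Acot3 with 4732463B04Rik and uc007oed.1 at 25.3% of control high, the complement genes Cfb and C2 with Slc44a4 at 49.5%, and Slc17a3, Slc17a1 and Slc17a4 at 22.1%. Nme7 and Atp1b1 formed the next. Overlap with a locus on the other strand was found for 62 loci, and in 10 of these the opposite locus had the higher control high level, as for Slc7a7 (87.9 CPM) beneath Oxa1l (245 CPM), so part of such a value may come from the other gene.

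The threshold of 16 times cut through a continuous range. Just inside it were Dmtn at 16.02 times, Trim47 at 16.09 and Cda at 16.14, and just outside were Lad1 at 15.99, Slc22a7 at 15.90 and the unnamed transcript uc008ruq.1 at 15.83. Another 175 loci lay between 8 and 16 times. In mutant high cells Dmtn had a mean of 51.7 CPM against 146 CPM in control high, while Lad1, outside the threshold, had 106 against 54.4 CPM.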

How the data were processed

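RNA-seq libraries were made with SMART-Seq v4 and NEBNext kits, per the labels. The authors deposited a table of estimated counts (expected counts) per transcript, which its title calls raw fragments of CuffDiff2. The submitters' processing notes also name Bowtie2, HTSeq, DESeq2 and mm9, without roles or versions. The design had assumed whole counts. Transcripts overlapping on one strand were summed to loci, of which 99.6% to 99.9% per library were whole within 0.01, and rounded. Strand is not marked by this chemistry, so overlapping antisense loci cannot be told apart. CPM used the library total (4549011 to 12365078 fragments). Values marked SD are the spread between libraries. Those marked SE are the size of the log2 fold change divided by the square root of edgeR's F value, from the fit of all 12 samples.

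Starts count from 0 in the table and are printed from 1. Loci were named against the GENCODE annotation of GRCm38, without converting coordinates. Names had to match transcribed length (within 10% or 50 bp) and spacing to at least 3 neighbours within 2000 kb (tolerance 2000 bp). This named 20432 of 25677 loci (79.6%), and 0 when chromosomes were mismatched on purpose. The mismatch could not show a wrong neighbouring gene chosen on the right chromosome. Among the 326 loci of the set, 61 matched at the exact transcribed length.

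edgeR 4.0.16 in R 4.3.3 (filterByExpr, 13749 loci, TMM, robust quasi-likelihood fit of all 12 samples, two-sided, Benjamini-Hochberg at 0.05) gave the tests, which were tested on simulated data. Alternatives used limma 3.58.1, DESeq2 1.42.0, other scalings, filters and fold limits, left-out libraries and replicate blocks. Python 3.11.15 and pandas 2.3.3 did the rest. By rule, the text names the 12 loci with the highest control high mean, the 8 with the largest and the 8 with the smallest mutant share, the 6 highest in mutant low cells, loci on the marker lists or beside another of the set, and 3 on each side of the threshold. Other genes named, and the roles, were chosen after values were seen. The loci and gene lists were chosen with earlier results of these data known. Results for some loci that the rule names are not reported here.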

Additional observations from a re-analysis of the deposited data

Results flagged for a closer look

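In groups of 4 libraries, 5 of 60 sets of values examined had 1 library far from the others, where chance alone gives about 1 in 20. Atp1b1 had its highest control low value, 511 CPM, in the second library, and Ocln its highest, 8.25 CPM, in the same library. The sum over all 326 loci was highest in the first mutant low library, at 2664 CPM. Afp and Spp2 were flagged in mutant low cells with highest values of 0.0812 and 0.134 CPM, each of which is a single fragment in 1 library with none in the other 3.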

How the results depend on the processing

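Under the alternatives tried, the loci called in mutant high against mutant low cells numbered 306 to 325, and 302 were called higher under every one of 15 settings. Without one library at a time the calls ran from 314 to 322 in mutant high against mutant low, 126 to 173 in mutant high against control high and 131 to 178 in mutant low against control low cells; the selection then gave 309 to 373 loci, with median shares of 27.7% to 35.4% (mutant high of control high) and 27.0% to 40.2% (mutant low of control low) and a median ratio of mutant high to mutant low of 32.5 to 41.7. A fit of the low groups alone tested 220 of the 326 loci and called 96. A limit of 8 times gave 501 loci, with medians of 37.2%, 48.0% and 19.7, and one of 32 times gave 149 loci, with 25.9%, 22.1% and 58.7. TMM-scaled CPM gave a median of 22.2% in place of 31.2%. With the replicate number of the titles as a replicate block, 322, 236 and 181 loci were called in the 3 comparisons, and with the number of the descriptions 306 in mutant high against mutant low cells, where Fxyd2 had a log2 fold change of 8.24 in place of 7.92 and was no longer called (edgeR adjusted p = 0.13). The latter block could not be fitted for the other comparisons, whose genotypes share no number. The pairing check gave correlations of 0.225 and 0.136 over 2 pairs, too few to decide whether same-numbered samples are paired. Of 434 combinations of a named locus and a setting, 432 kept their side of the threshold and 0 reversed; Jarid2 passed under limma (-0.59, adjusted p = 0.0317). The cause of these shifts was not tested. Loci of 1 to 3 fragments in mutant low cells are limited by depth.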
